A study of Mus musculus with 2 samples.

Results

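The miR-126 hairpin gives rise to a pair of mature microRNAs (miRNAs), miR-126-3p from its 3′ arm and miR-126-5p from its 5′ arm. The array lists them as mmu-miR-126-3p and mmu-miR-126-5p. Both were chosen by name, and they made up 2 of the 566 mouse miRNA names on the array. RNA came from LKS cells and from total bone marrow (total BM) of C57BL/6J mice, with 1 single-colour Agilent miRNA array for each group. LKS cells are negative for lineage markers and positive for Kit and Sca1. They had been isolated from bone marrow by magnetic enrichment followed by a fluorescent sort, and this fraction contains haematopoietic stem cells together with early progenitors. Total BM was unsorted and is the comparison for them. The age and sex of the mice, and how many gave each sample, are not stated in the labels. With 1 array per group there is no measure of the spread between animals, so no p-value or SD is given and every difference describes these 2 arrays.

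MiRNAs are short RNAs that guide Argonaute proteins to messenger RNAs, mainly through the seed, the bases near their 5′ end, and so lower the output of those messages. MiR-126-3p is best known from endothelial cells, where in mouse it lowers Spred1 and Pik3r2 and so favours signalling downstream of vascular endothelial growth factor. In mouse and human haematopoietic stem cells it is known to dampen phosphoinositide 3-kinase signalling and to restrain entry into the cell cycle. MiR-126-5p, the other arm of the same hairpin, is known in mouse endothelium for lowering Dlk1, a Notch inhibitor.

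The sequences shown are those of the arm that was detected and of the hairpin that holds both arms, because 1 arm was detected and the other was not. They were taken from RefSeq on GRCm38.p6, which lists the hairpin gene as Mir126a at chr2:26591357-26591429 on the plus strand, within the span of Egfl7, a gene for a secreted protein of endothelial cells. The array names match this gene through its older symbol, and the array files themselves name no genome build. In the mature sequence the capitals mark the seed, bases 2 to 8. In the hairpin they mark the miR-126a-3p sequence, which spans positions 46 to 67 of its 73 bases.
miR-126a-3p: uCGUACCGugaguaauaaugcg
Mir126a hairpin: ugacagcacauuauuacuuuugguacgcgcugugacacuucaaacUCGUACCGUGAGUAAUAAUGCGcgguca

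The seed CGUACCG belonged to 1 of the 1679 mature mouse miRNA names in the RefSeq table, miR-126a-3p itself, so no other listed miRNA shares it. A message pairs with this seed through the letters CGGUACG. The seed holds 2 CG dinucleotides, and 19 of the listed names (1.13%) have at least as many in theirs. G and C make up 45.5% of the mature sequence, against a median of 52.2% over all listed names. RefSeq also lists Mir126b, a hairpin of 58 bases on the minus strand, all 58 of which lie within the Mir126a hairpin. Its miR-126b-5p is complementary to miR-126a-3p over a run of 19 bases. No name on the array refers to miR-126b.

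MiR-126-3p was higher in LKS cells than in total BM. The LKS array gave it a signal of 87.6 ± 7.01 intensity units, against 24.2 ± 3.38 on the total BM array, where each error is the one the authors deposited with the signal. It carried a detection call on both arrays, with a signal of 12.5 errors in LKS cells and 7.17 errors in total BM. The 2 signals differed by 63.4 ± 7.79 units, or 8.15 combined errors, and the ranges of 2 errors around them, 73.6 to 101.7 in LKS cells and 17.5 to 31.0 in total BM, did not overlap. In the signals as deposited the ratio was 3.62-fold. Each sample holds many cell types, so more cells that carry miR-126-3p and more miR-126-3p per cell cannot be told apart in these data.

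MiR-126-5p was detected on neither array. Its signal was 0.550 ± 2.71 units in LKS cells and 2.59 ± 2.86 in total BM, so both lay within 1 error of 0. The difference of -2.04 ± 3.94 units amounted to -0.518 combined errors, and the order of the 2 values carries no information at this signal. Signals up to 5.96 in LKS cells and 8.30 in total BM lay within 2 errors. No ratio is given, since neither array has a measured level, and a change in this arm was not detectable rather than shown to be absent. Probes differ in affinity, so the brighter 3p probe does not show that this arm is the more abundant.

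**Figure D1:**
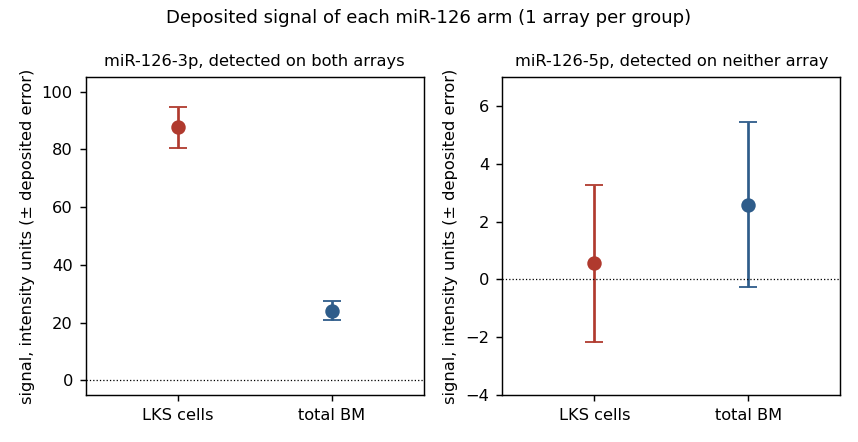
Deposited signal in intensity units of miR-126-3p (left) and miR-126-5p (right) on the LKS array and the total BM array, with bars of 1 deposited error; the vertical axes differ between panels. MiR-126-3p reads 87.6 in LKS cells and 24.2 in total BM with bars far apart, while the bars of miR-126-5p overlap each other and 0.

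The LKS array was the dimmer of the 2 in its control probes and in the miRNAs detected on both arrays, which affects the size of the ratio. It detected 98 of the 566 mouse miRNAs (17.3%) and the total BM array 145 (25.6%), and 93 were detected on both. Over all miRNAs detected on each array, which differ between the arrays, the median signal was 55.0 units on LKS and 41.2 on total BM. The 6 probes without a miRNA identifier that were detected on both arrays, taken as controls, were each dimmer on LKS, with total BM to LKS ratios from 1.20 to 2.03. Each array's signals were therefore scaled to their 75th percentile among the 93 shared miRNAs, 242 units on LKS and 399 on total BM. This scaling raised every log2 ratio by 0.72. MiR-126-3p then stood at 0.363 ± 0.0290 of that percentile in LKS cells and 0.0607 ± 0.00847 in total BM. Its scaled ratio was 5.98-fold, a log2 ratio of 2.58 ± 0.23, with the error propagated from both deposited errors. Values 2 such errors away were 4.33-fold and 8.25-fold, a range that covers technical error on these arrays only.

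The direction held under every scaling tried, while the size of the ratio did not. With no scaling the log2 ratio was 1.86, the log2-like values of the authors' deposited table differed by 1.80, and scaling on the median of the control probes gave 2.35. Scaled on each control probe by itself, the log2 ratio lay between 2.12 and 2.88. In all 15 settings tried, the LKS signal was over 2-fold that of total BM.

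**Figure D2:**
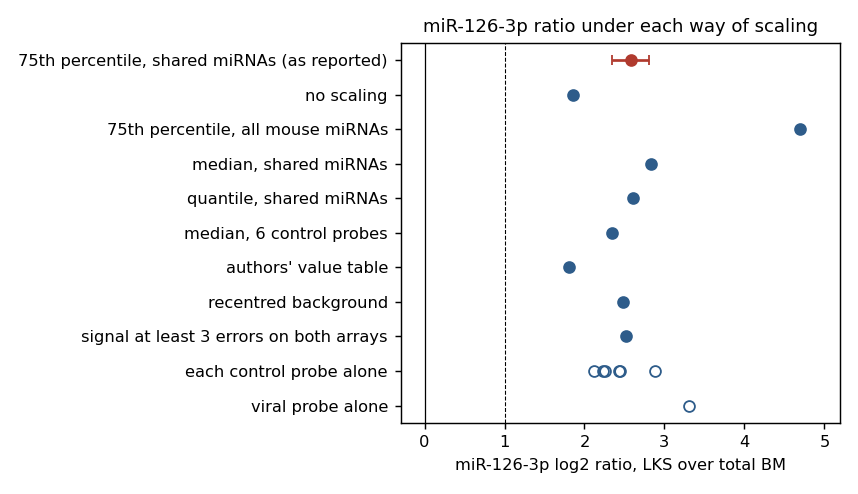
Log2 ratio of miR-126-3p, LKS over total BM, under each scaling, filter or source of values (rows); the filled red point is the value as reported with its technical error, open points use 1 control or viral probe alone, and the dashed line marks a 2-fold difference. All points lie right of that line, from 1.80 for the authors' value table to 4.70 for the 75th percentile over all mouse miRNAs.

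Among the 93 shared miRNAs, miR-126-3p had the rank of 5 by log2 ratio, with 4 ratios above it and 88 below. Of the 93, 17 reached a 2-fold excess in LKS cells, a background of 18.3%, and the median log2 ratio over all 93 was 0.07. In the signals as deposited 7 of the 93 (7.53%) passed this fold, and miR-126-3p was 1 of them. The order at the top was not fully resolved by the technical errors. MiR-196b, encoded in a Hox gene cluster, miR-99a and miR-130a lay above miR-126-3p by 2.21 ± 0.52, 1.34 ± 0.39 and 1.28 ± 0.37 on the log2 scale, each over 2 combined errors. MiR-542-5p was 0.35 ± 0.51 above it, which is within the error. Of the 88 below it, 85 were lower by over 2 combined errors.

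**Figure D3:**
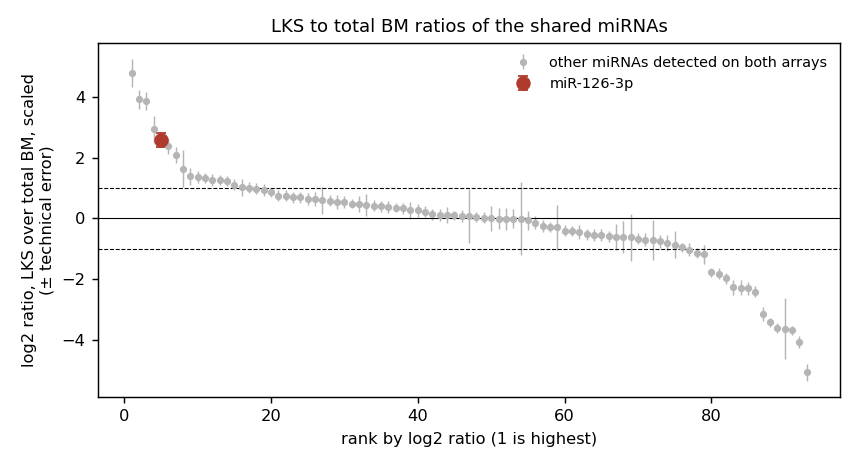
Scaled log2 ratio, LKS over total BM, of the 93 miRNAs detected on both arrays (points, with bars of 1 technical error), ordered by rank, with miR-126-3p in red and dashed lines at 2-fold. MiR-126-3p sits at rank 5 with a log2 ratio of 2.58, in the steep left end that stands above most of the shared miRNAs.

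The miRNAs most like miR-126-3p were taken as the 6 with the nearest log2 ratio over these 2 arrays. With only 2 arrays this likeness is a single number per miRNA, and many patterns cannot be told apart by it. MiR-181c, of a family known for roles in lymphocyte development, was nearest. It read 64.6 ± 5.68 units in LKS cells and 20.2 ± 3.25 in total BM, and its log2 ratio of 2.40 ± 0.26 was 0.18 ± 0.35 from that of miR-126-3p. MiR-542-5p read 34.3 ± 3.47 in LKS cells and 7.43 ± 2.18 in total BM. MiR-155, known for its part in inflammatory responses, read 58.7 ± 6.47 in LKS cells and 22.7 ± 3.59 in total BM, with a log2 ratio lower by 0.49 ± 0.36. These 3 and miR-181d, which differed by 0.94 ± 0.64 on faint signals, were the 4 miRNAs within 2 combined errors of miR-126-3p. MiR-221, known to target Kit, and let-7c, of a family that opposes Lin28, completed the 6, and both were further off, by 1.20 ± 0.37 and 1.21 ± 0.30.

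Detection of a single arm was common on these arrays. Names were paired as arms of a hairpin where they ended in 3p and 5p, or differed by the asterisk that marks a minor strand in older nomenclature. Of 165 such hairpins, 47 (28.5%), miR-126 among them, had 1 arm detected on both arrays and the other on neither. In 97 hairpins neither arm was detected on any array, and in 3 both arms were detected on both. Where both arms could be measured, their log2 ratios differed by 0.19 ± 0.24 for miR-142 and 0.16 ± 0.29 for miR-140, which is within the error, and by 0.70 ± 0.75 for miR-30b. No such check could be made for miR-126.

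Of the 47 hairpins, miR-126 had the second highest ratio for its detected arm, and 7 detected arms (14.9%) reached a 2-fold excess in LKS cells. Without scaling 2 of the 47 did, miR-542-5p and miR-126-3p. Above it was miR-542, with miR-542-5p at 7.62-fold and an undetected miR-542-3p that read 0.964 ± 2.71 in LKS cells and -1.84 ± 2.85 in total BM. Below it were miR-10a at 2.52-fold and miR-92a at 2.42-fold, with undetected partners. The undetected arm was dimmer on the LKS array in 45 of the 47, with a median difference of -2.64 units. The -2.04 units of miR-126-5p are thus close to what undetected partner arms gave as a group, 33 of which were more negative and 13 less so. Over the 416 mouse miRNAs detected on neither array, the median difference was -2.40 units and its quartiles -3.39 and -1.63.

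**Figure D4:**
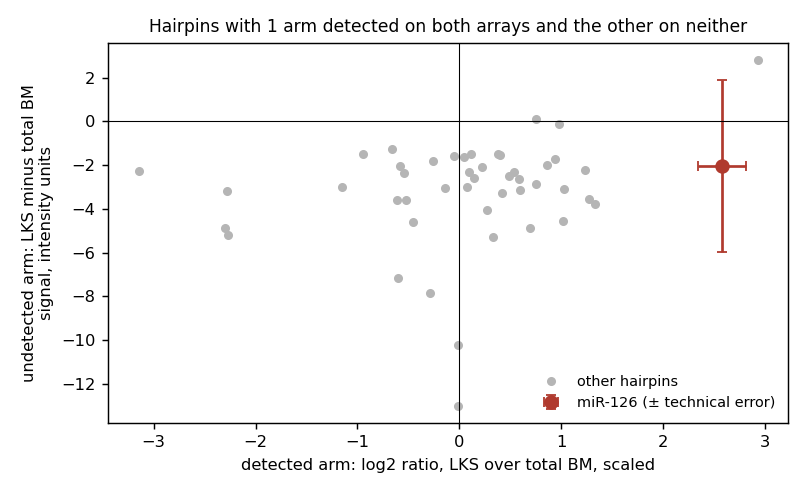
The 47 hairpins with 1 arm detected on both arrays and the other on neither: scaled log2 ratio of the detected arm, LKS over total BM, against the LKS minus total BM signal difference of the undetected arm in intensity units, with miR-126 in red and bars of 1 technical error. The detected arm of miR-126 lies far right at 2.58, and its undetected arm at -2.04 is level with the bulk of the other hairpins.

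The signals of miR-126-5p were nevertheless in the upper part of the undetected range. Background subtraction left the median undetected signal at -5.55 on LKS and -3.02 on total BM. Measured from these medians, miR-126-5p read 6.10 units in LKS cells and 5.61 in total BM. Of the 468 undetected mouse miRNAs on LKS, 55 had a higher signal, as had 44 of the 421 on total BM. Background differs between probes, and with no replicate these positions are not evidence that the arm is present.

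Since miR-126 also marks endothelial cells, and is abundant in platelets, miRNAs linked to other cell types were read on the same arrays. Of 6 endothelial miRNAs other than miR-126 on the array, 4 were detected on both arrays, with a median log2 ratio of 0.30, against 0.07 over all 93 shared miRNAs. MiR-221 was higher in LKS cells by 2.61-fold, miR-23b and miR-27b had log2 ratios of 0.65 ± 0.19 and -0.05 ± 0.31, and miR-296-5p was lower with a log2 ratio of -2.27 ± 0.24. Without scaling the median turned to -0.43 and miR-23b to -0.08, and miR-221, at 0.66, was no longer 2-fold higher. Their signals as deposited summed to 138 units on the LKS array and 287 on the total BM array, a sum that weights bright probes most, and without miR-296-5p to 117 on LKS and 123 on total BM. MiR-222 and miR-218 were detected on neither array. These miRNAs are not restricted to endothelium, and the part of endothelial cells in the miR-126-3p signal was not tested.

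Another list held 5 miRNAs linked to megakaryocyte development, which are not all markers of megakaryocytes. Of these, miR-130a was 14.5-fold and miR-10a 2.52-fold higher in LKS cells. MiR-146a and miR-150 were detected in total BM only, and miR-10b on neither array. Of all 566 mouse miRNAs, 145 were called on total BM and 93 of these on both arrays. Without scaling miR-10a, at a log2 ratio of 0.61, was below 2-fold. The signals of miR-130a and miR-10a as deposited summed to 365 units on the LKS array and 160.4 on the total BM array, where the miR-10a probe gave 144 of them. MiR-130a also stands in a published list of stem and progenitor miRNAs, which may itself have been selected on these samples. Whether the megakaryocytic list separates the lineages was not tested, and neither was the part of megakaryocytic cells. Of 6 mesenchymal stroma miRNAs, only miR-140 was detected, where 416 of all 566 mouse miRNAs were detected on neither array. Most names were thus undetected, and the count says little about stroma. MiR-140 read 37.7 ± 4.004 units on the LKS array and 90.6 ± 7.57 on the total BM array, a scaled log2 ratio of -0.54 ± 0.19.

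The LKS array gave lower signals, or none called, for markers of mature blood cells. The erythroid miRNAs miR-451, miR-144 and miR-486 had no detection call on the LKS array, whereas on total BM all 3 were called and summed to 309.6 units. Calls were fewer on LKS in general: of all 566 mouse miRNAs, 145 were called on total BM and 98 on LKS, with 93 on both. MiR-223, abundant in neutrophils, read 822 ± 73.0 in LKS cells and 7250 ± 641 in total BM. MiR-150, which is high in mature lymphocytes, had a call on total BM alone. MiR-342-3p, also known from lymphocytes, read 38.5 ± 4.26 units on the LKS array and 314 ± 25.7 on the total BM array. The scaled log2 ratios were -2.42 ± 0.18 for miR-223 and -2.30 ± 0.20 for miR-342-3p, where 17 of the 93 shared miRNAs (18.3%) were at least 2-fold lower.

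MiR-126-3p was also read beside other miRNAs known to act on the self-renewal or quiescence of haematopoietic stem cells. Of the 6 others on this list, 4 were detected on both arrays, with a median log2 ratio of 0.24, against 0.07 over all 93 shared miRNAs. Of these 4, 1 was at least 2-fold higher and 1 at least 2-fold lower in LKS cells, where 17 of the 93 (18.3%) were higher and 17 (18.3%) lower. MiR-99a, which is known to support stem cell maintenance, was the 1 that was higher, by 15.1-fold. MiR-22, known to act on Tet2 when in excess, had a log2 ratio of -2.28 ± 0.25. MiR-29a and miR-33 had log2 ratios of 0.40 ± 0.19 and 0.07 ± 0.89. Without scaling these became -0.33 and -0.65, and the median of the 4 became -0.49. MiR-125b-5p, at 26.7 ± 3.95 units on the LKS array, and miR-125a-5p, at 5.43 ± 2.80, were detected in LKS cells only. Of all 566 mouse miRNAs, 98 were called on LKS and 93 of these on both arrays. The miR-125a-5p signal lay below the highest undetected LKS signal of 6.39, so its call is faint. The members of this functional list did not share 1 direction. The published list of 11 stem and progenitor miRNAs that contains miR-126-3p had 7 shared members. These 7 held the 7 highest of the 93 ratios, and they were also the 7 (7.53%) past 2-fold as deposited. The list thus matches the top of this same ranking, and its members may have been selected on these samples. Its direction is therefore not independent evidence, and no comparison with the background share is made. MiR-99a, miR-125b-5p and miR-125a-5p of the functional list stand in this published list too, so their direction is not independent evidence either. The median and counts of the functional list include miR-99a and carry the same limit.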

How the data were processed

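RNA was prepared with a miRNeasy kit and carried a Cy3 label, per the labels. The authors deposited linear signal intensity values per miRNA, background-subtracted and not scaled between arrays, each with an error and a detection call of 0 or 1, per the file headers. The sources used here give neither the scanner and software nor the rule of the call. The authors also deposited a log2-like value table of the same arrays. It was fitted by an inverse hyperbolic sine of the signal with an added constant, to within 4.1e-09, and with medians of 1.00 on LKS and 1.46 on total BM. How its constants were chosen is unknown.

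Names starting with mmu were taken as mouse miRNAs. Signals were scaled by the 75th percentile over miRNAs detected on both arrays, and log2 ratios were LKS minus total BM with errors propagated from the deposited ones (Python 3.11.15, pandas 2.3.3, NumPy 2.4.6, SciPy 1.17.1). A 2-fold ratio was the threshold. Scaling, counting and ranking were tested on simulated arrays where every name was detected and each error was a constant share of the signal. Faint and undetected signals were not covered by that test. Named miRNAs were both arms, the 6 nearest ratios, hairpins with both arms detected on both arrays, the 4 highest of the hairpins with 1 detected arm, and the list members. MiR-196b, miR-99a and miR-130a were named as the ratios above miR-126-3p. The members, lists and rules were chosen with earlier results of these data known. The number of arrays limits the precision, and probe sequences were not used.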

Additional observations from a re-analysis of the deposited data

How the results depend on the processing

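No paired analysis was possible because LKS and total BM have 1 array apiece, and leaving an array out would remove a group. The rank of 5 held in all 8 planned settings, although scalings that shift all ratios by 1 constant cannot change it. The log2 ratio of miR-126-3p, 2.58 as reported, was 1.86 without scaling, 1.80 in the authors' deposited value table, 2.83 with the median of the shared miRNAs and 4.70 with the 75th percentile over all mouse miRNAs. That percentile was 1.12 units on LKS, below the lowest detected LKS signal of 2.91, and 8.0 on total BM. Chosen after seeing the data, scaling on 1 control probe at a time gave 2.12, 2.23, 2.26, 2.44, 2.45 and 2.88, and scaling on a viral probe gave 3.30. The 17 shared miRNAs at least 2-fold higher became 7 without scaling, 7 in the deposited table, 77 with the percentile over all miRNAs, 28 at 1.5-fold and 7 at 4-fold. The miR-126-5p difference of -2.04 units turned to 0.50 once each array was recentred on its median undetected signal, and to 0.0804 in the log2-like units of the deposited table, an alternative added after seeing the data. In that table a signal of 0 corresponds to 2.41 on LKS and 1.81 on total BM, so its values of 2.53 and 2.45 for this arm reverse the order by construction.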
